A study of Mus musculus with 36 samples.

Results

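Lesions in 8 genes of the neurexin superfamily were followed across 6 mouse tissues, by counting positions inside their spans: the neurexins Nrxn2 and Nrxn3, the neuroligin Nlgn1, and the contactin-associated protein genes Cntnap2, Cntnap4, Cntnap5a, Cntnap5b and Cntnap5c. They were chosen by symbol and make up 8 of the 49943 genes annotated on chromosomes 1 to 19, X and Y. All samples were from male C57BL/6J mice aged 24 months, with no treatment named. Bone marrow (red cells lysed), brain, heart, liver, peripheral blood mononuclear cells (PBMCs, separated on Ficoll) and motile sperm from the epididymal tail were each represented by 2 samples. The labels name 2 mice in all, so samples of different tissues may share an animal. The edgeR p-values below rest on counting error and on a spread estimated over all genes together. They do not measure how a single gene varies between mice. Each sample gave a list of single-strand breaks (SSBs) and a list of abasic (AP) sites, which makes 24 libraries. Sperm DNA was purified with a kit of its own, so tissue and DNA kit cannot be told apart for sperm.

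Neurexins are presynaptic adhesion proteins that bind neuroligins, their postsynaptic receptors, across the synaptic cleft. Contactin-associated proteins are neurexin-like proteins of axons and synapses, and Cntnap2 is best known for clustering potassium channels next to the node of Ranvier. Many genes of the family are among the longest of the genome and are transcribed mainly in neurons. An SSB is a nick in 1 strand of the DNA, and an AP site is a sugar that has lost its base. Both arise by decay of DNA and as intermediates of base excision repair. Lesions were counted here in DNA, so the labelled tissues could not be checked against marker genes. RNA was not analysed here.

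The spans are those of the RefSeq annotation of GRCm38, introns and exons together. Cntnap2 (gene ID 66797, chr6:45060061-47301393) is 2241 kb long and ranked 5 in length among all genes. Nrxn3 (18191, chr12:88722701-90334935) spans 1612 kb, Nlgn1 (192167, chr3:25421808-26332866) 911 kb and Cntnap5a (636808, chr1:115684737-116587323) 903 kb. Cntnap5b (241175, chr1:99772246-100490599) spans 718 kb and Cntnap5c (620292, chr17:57769074-58417953) 649 kb. Cntnap4 (170571, chr8:112569798-112882707) is shorter, at 313 kb, and Nrxn2 (18190, chr19:6418756-6533217) is the shortest, at 114 kb. 6 of the 8 are thus among the 236 genes over 500 kb, which serve as a second background below beside all genes. A position inside 2 overlapping genes was counted for both, and Cntnap2 holds 10 other annotated genes within its span. Cntnap5b overlaps 6 genes, among them the protein-coding Gm29667, so positions there cannot be assigned to 1 gene.

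The SSB libraries listed 225011 to 1041983 positions (median 410489) and the AP libraries 460719 to 963258 (median 739741). Of these, 500 to 2495 SSB positions and 1092 to 2262 AP positions per library lay in the 8 genes. Levels are given as LPKM, a count of positions scaled by 1e9 over the product of gene length (bases) and the total positions listed in that library. LPKM is therefore a share of a library's lesions and not an amount of damage per cell. In the SSB libraries the share of positions inside annotated promoter windows differed between tissues, with means from 0.74% in sperm to 1.60% in bone marrow. The share in the other genes over 500 kb was highest in sperm (8.04%) and lowest in bone marrow (6.51%). Between these extremes the order was not reversed. PBMCs had 0.785% in promoter windows and 7.30% in long genes, brain 1.03% and 7.24%, and heart 1.13% and 7.30%. The part these shares play in the results below was not tested.

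Lesions could be placed to the nucleotide, and 2 promoters are shown to make the scale of the data visible. Each is the run of 250 bases before an annotated start (RefSeq, GRCm38.p6, plus strand, 5′ to 3′), with the nucleotides listed in any of the 24 libraries in capitals. The Nrxn3 window, chr12:89812233-89812482, lies before a start inside the gene and was taken because it held the most SSBs of the Nrxn3 windows, and the Cntnap2 window, chr6:45059811-45060060, lies just before the gene.
Nrxn3: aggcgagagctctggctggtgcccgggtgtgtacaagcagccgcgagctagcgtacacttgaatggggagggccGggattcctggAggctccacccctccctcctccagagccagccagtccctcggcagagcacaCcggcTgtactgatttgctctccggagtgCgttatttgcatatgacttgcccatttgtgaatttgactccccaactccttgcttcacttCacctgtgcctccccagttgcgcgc
Cntnap2: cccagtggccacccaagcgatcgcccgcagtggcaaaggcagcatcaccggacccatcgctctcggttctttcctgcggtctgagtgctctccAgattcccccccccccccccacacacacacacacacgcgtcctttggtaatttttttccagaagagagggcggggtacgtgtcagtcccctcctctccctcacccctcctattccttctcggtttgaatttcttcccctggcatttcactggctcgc
The Nrxn3 window held 4 SSBs, 3 of them in liver and 1 in heart, and 2 AP sites, 1 in brain and 1 in liver. The Cntnap2 window held 1 SSB, in liver, and no AP site. Of all 32851 such windows, 14.5% held 4 or more SSBs and 66.3% held at least 1 over the 12 SSB libraries, so neither window stood apart from promoters in general. Both are rich in G and C, at 60% for Nrxn3 and 59.6% for Cntnap2 against a median of 52.4% over all windows.

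Levels differed far more between the genes than between tissues. Nrxn2 had the highest mean of the 8 genes in both assays, at 1.05 ± 0.272 LPKM-SSB and 0.826 ± 0.133 LPKM-AP (SD, n = 12 libraries), above the medians over all retained genes of 0.628 and 0.638. The other 7 lay below those medians. Nrxn3 followed with 0.427 ± 0.0389 LPKM-SSB and 0.47 ± 0.0282 LPKM-AP, and Cntnap4 with 0.372 ± 0.0604 and 0.363 ± 0.0467. Nlgn1 had 0.327 ± 0.0413 LPKM-SSB, Cntnap5a 0.277 ± 0.0458, Cntnap2 0.274 ± 0.0305, Cntnap5b 0.259 ± 0.0317 and Cntnap5c 0.225 ± 0.0298. For comparison, the genes over 500 kb had a median of 0.373 LPKM-SSB and 0.396 LPKM-AP. Nrxn3 exceeded 59.7% of them for SSBs and 62.7% for AP sites, whereas Cntnap5c exceeded 16.1% and 18.2%.

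The spread over libraries is given beside the number of positions behind it. Nrxn2 rested on 23 to 101 SSB positions per library and varied by 25.8% (coefficient of variation), where counting alone gives 14.7% at its median count. Nrxn3 rested on 147 to 678 SSB positions and varied by 9.1%, against 5.98% from counting. In the AP libraries the same values were 16% against 11.7% for Nrxn2 and 5.99% against 4.21% for Nrxn3. The tissue with the highest mean exceeded the one with the lowest by a factor that ran from 1.2 for Cntnap5c to 1.89 for Nrxn2 in the SSB libraries, and from 1.14 for Nrxn3 to 1.5 for Nrxn2 in the AP libraries.

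**Figure D1:**
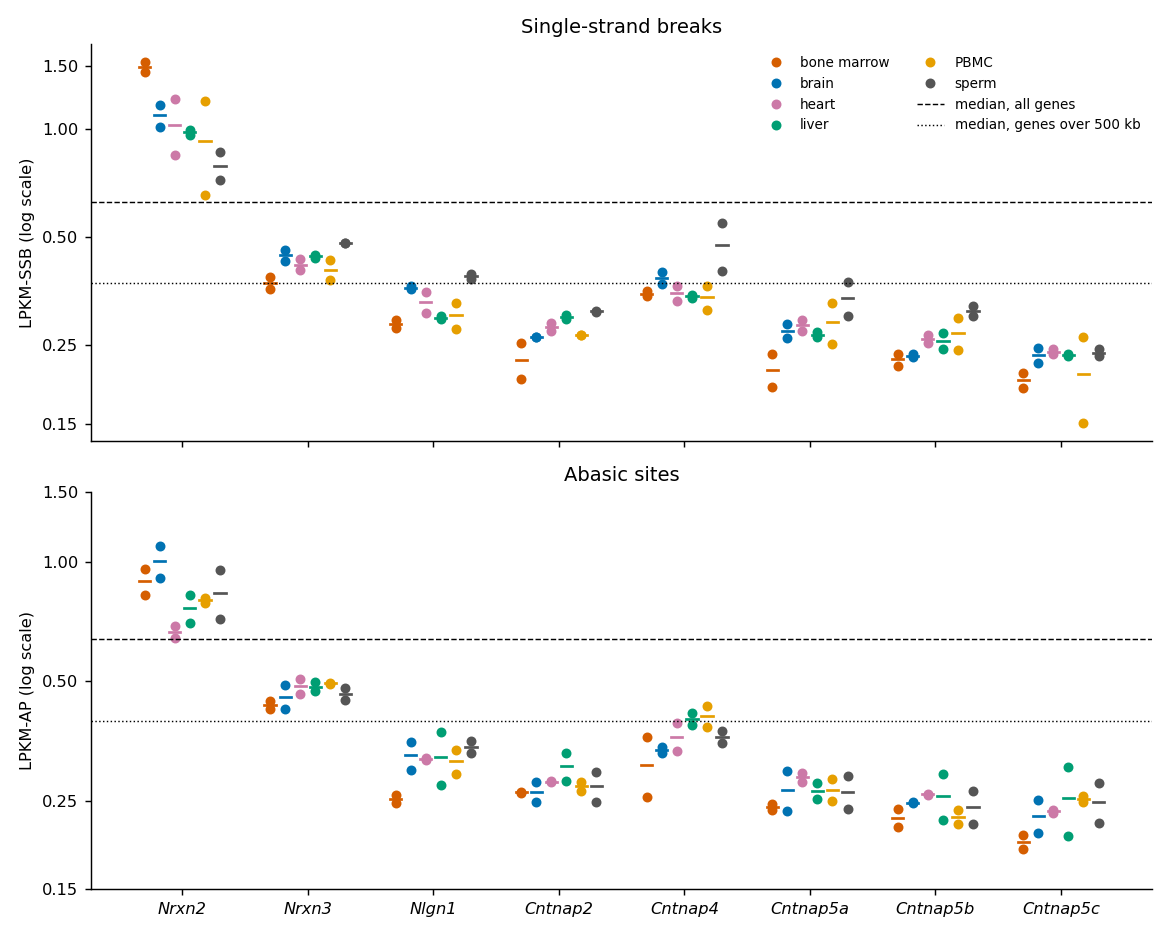
Lesion levels of the 8 genes, in LPKM on a log axis, for SSBs (top) and AP sites (bottom). Each point is a library, coloured by tissue, short bars are means of 2 libraries, and lines give the medians over all retained genes (dashed) and over genes above 500 kb (dotted). Nrxn2 lies above the dashed line in all 24 libraries, while the other 7 genes lie below it in all 24.

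The first question was whether SSB levels of these genes differed among the 6 tissues. With edgeR's quasi-likelihood test over the tissues, 2 of the 8 genes passed, Cntnap2 (adjusted p = 0.0194) and Nrxn3 (adjusted p = 0.043). Over all 38486 genes 0.125% passed, and over the genes above 500 kb 15.7%. Cntnap5a (adjusted p = 0.0596), Nlgn1 (0.105) and Nrxn2 (0.585) did not pass, and Cntnap4, Cntnap5b and Cntnap5c had adjusted p of 0.987 to 0.992 in the same edgeR test. By unadjusted p, 6 of the 8 were under 0.05, as were 4.85% of all genes. The share of genes over 500 kb under 0.05 by unadjusted p was not counted, here or below.

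Cntnap2 showed the tissue order most cleanly. Its LPKM-SSB was 0.253 and 0.2 in the bone marrow libraries, 0.263 and 0.262 in brain, 0.266 and 0.266 in PBMCs, 0.287 and 0.273 in heart, 0.294 and 0.302 in liver, and 0.309 and 0.311 in sperm. No neighbouring tissues in this order overlapped, but the order was sorted from the means of these same libraries. Brain and PBMCs differed by only 0.003 LPKM, where the 95% counting interval of PBMC library 1 ran from 0.223 to 0.315. The share of all genes without such overlap was not counted. Nrxn3 ran from 0.358 and 0.386 in bone marrow through 0.43 and 0.379 in PBMCs, 0.434 and 0.404 in heart, 0.445 and 0.437 in liver and 0.46 and 0.429 in brain to 0.481 and 0.481 in sperm. For Nrxn3, 3 of the 5 neighbouring pairs overlapped, and sperm stood above all other libraries. Both calls rested on several libraries. With 1 library left out at a time, edgeR called Cntnap2 in 3 of 12 fits and Nrxn3 in 1 of 12.

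Those losses were spread over most tissues. Cntnap2 lost its call without bone marrow replicate 1 (adjusted p = 0.116) or 2 (0.577), brain 2 (0.165), heart 1 (0.253) or 2 (0.0639), liver 1 (0.471) or 2 (0.0766), and sperm 1 (0.643) or 2 (0.209). Nrxn3 lost its call without bone marrow 1 (adjusted p = 0.994) or 2 (0.18), brain 1 (0.053) or 2 (0.413), heart 1 (0.485) or 2 (0.117), liver 1 (0.736) or 2 (0.083), PBMC 2 (0.0538), and sperm 1 (0.878) or 2 (0.334). Cntnap5a passed without PBMC 1 (adjusted p = 0.0326) or PBMC 2 (0.0266). DESeq2 and limma on log2(LPKM + 0.1) called none of the 8.

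Bone marrow had the lowest mean LPKM-SSB, each a mean of 2 libraries, for 6 of the 8 genes. Its libraries overlapped those of the next tissue for Nrxn3, Cntnap5b and Cntnap5c. The share of all genes with bone marrow lowest by mean was not counted. Bone marrow and sperm were contrasted with the rest because earlier results of these data put the extremes of long genes there. The tests of these 2 tissues are therefore no independent check of that pattern. In bone marrow against the mean of the other 5 tissues, Cntnap5a was lower by the widest margin (log2 difference -0.61, SE 0.14, edgeR adjusted p = 0.0123). Cntnap2 (-0.40, SE 0.09, adjusted p = 0.0222) and Nrxn3 (-0.37, SE 0.09, adjusted p = 0.0296) followed in edgeR's test. These 3 of 8 genes compare with 0.166% of all genes called lower and with 20.3% of genes over 500 kb, and no member was called higher. By unadjusted p, 7 of the 8 were under 0.05, against 6.78% of all genes. Nrxn2 was among these 7 but was higher in bone marrow (0.54), and the rest of the 7 were lower. The median difference of the 8 genes was -0.37, against 0.04 over all genes and -0.35 over genes above 500 kb. In LPKM-SSB, Cntnap5a had 0.191 and 0.235 in bone marrow and 0.251 to 0.374 (median 0.279) in the other 10 libraries, without overlap. Cntnap2 did not overlap either, at 0.2 and 0.253 against 0.262 to 0.311 (median 0.28). These 2 of 8 genes compare with 1.27% of all genes and 20.8% of genes over 500 kb whose bone marrow libraries both lay below the other 10. Nrxn3 did overlap, at 0.358 and 0.386 against 0.379 to 0.481 (median 0.435).

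The remaining members were close in size but did not pass. Nlgn1 differed by -0.37 (95% interval -0.61 to -0.13, adjusted p = 0.315), Cntnap5b by -0.37 (-0.66 to -0.08, 0.526), Cntnap5c by -0.33 (-0.65 to -0.01, 0.714) and Cntnap4 by -0.25 (-0.60 to 0.11, 0.88) in the edgeR test. All 7 genes other than Nrxn2 therefore had a negative estimate. Scaling mattered here. Without TMM scaling the median over all genes moved from 0.04 to 0.16, the calls over all genes went from 9 higher and 64 lower to 21 higher and 8 lower, and none of the 7 passed. Relative to that median, Nrxn3 differed by -0.40 with and without TMM, Cntnap2 by -0.44 and -0.43, and Cntnap5a by -0.65 under both.

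The bone marrow calls were also sensitive to single libraries. Cntnap5a lost its call without bone marrow 1 (adjusted p = 1), brain 2 (0.0966), heart 1 (0.0695), liver 1 (0.132) or sperm 1 (0.0685). Cntnap2 lost it without bone marrow 1 (adjusted p = 0.516), bone marrow 2 (0.631), brain 2 (0.225), heart 1 (0.171), liver 1 (0.22) or sperm 1 (0.197). Nrxn3 lost it without bone marrow 1 (adjusted p = 1) or 2 (0.166), brain 2 (0.25), heart 1 (0.26) or 2 (0.0595), liver 1 (0.34) or 2 (0.0536), and sperm 1 (0.292) or 2 (0.0643). The sign stayed negative for all 3 genes in every one of these fits. With the sperm samples left out altogether, the 3 differences were -0.50, -0.31 and -0.27 and none passed.

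**Figure D2:**
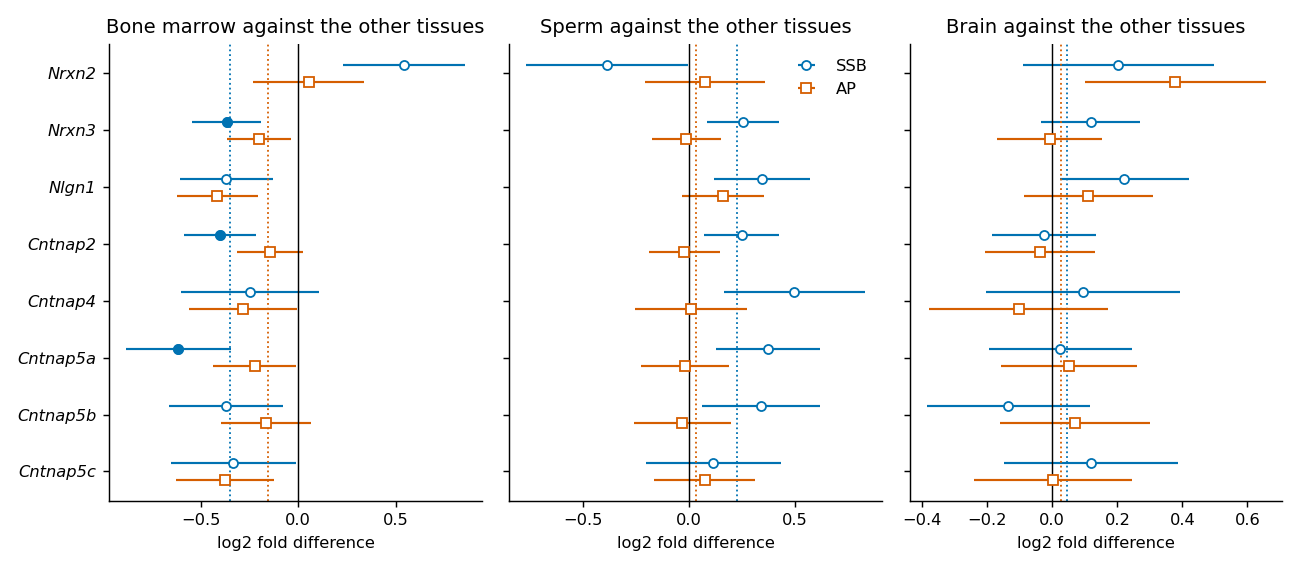
Difference of 1 tissue from the mean of the other 5, as log2 fold with its 95% interval from edgeR, for SSBs (circles) and AP sites (squares). Filled symbols passed the adjusted threshold of 0.05, and dotted lines give the median over genes above 500 kb in the colour of the assay. The 3 filled symbols are Nrxn3, Cntnap2 and Cntnap5a in bone marrow SSBs, and Nrxn2 lies on the other side of 0 from the 7 others in bone marrow and in sperm SSBs.

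Nrxn2 ran against the rest of the family. In LPKM-SSB it had 1.54 and 1.44 in bone marrow, above the other 10 libraries, which lay between 0.657 and 1.21 (median 0.982). Sperm was lowest on average, at 0.862 and 0.721. The bone marrow difference was 0.54 on the log2 scale (SE 0.16, 95% interval 0.23 to 0.86) and did not pass (edgeR, adjusted p = 0.157), although it passed without TMM scaling (0.68, adjusted p = 0.0321). Of all genes, 3.23% had both bone marrow libraries above the other 10, and none of the genes over 500 kb did. The DNA around Nrxn2 moved the same way. Its flanks of 500 kb on either side had 0.959 and 0.877 LPKM-SSB in bone marrow against 0.435 to 0.731 in the other 10 libraries, and sperm was lowest there too, at 0.506 and 0.435. The share of all genes with such flanks was not counted. For every other member the bone marrow SSB flanks overlapped those of the other 10 libraries. In LPKM-AP the bone marrow flanks of Nrxn2 also lay above the rest (0.696 and 0.718 against 0.446 to 0.683), whereas the gene itself overlapped. Over the 12 SSB libraries the log2 level of Nrxn2 correlated with that of the other 7 genes pooled at r = -0.73, whereas each of the others correlated with its own rest at 0.35 (Cntnap5c) to 0.79 (Nrxn3). These libraries share a depth range and are 2 per tissue, so the values are descriptive.

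Sperm showed the opposite order to bone marrow. The comparisons share libraries, since each tissue is part of the other's reference. In LPKM-SSB, both sperm libraries lay above the other 10 for Nrxn3, Nlgn1, Cntnap2, Cntnap4 and Cntnap5b, which is 5 of 8 genes against 1.94% of all genes and 28.4% of genes over 500 kb. Nlgn1 had 0.395 and 0.382 in sperm against 0.276 to 0.364 (median 0.304) elsewhere, and Cntnap4 had 0.545 and 0.401 against 0.312 to 0.398 (median 0.348). Cntnap5b had 0.301 and 0.32 against 0.219 to 0.296 (median 0.242). Cntnap5a, with 0.301 and 0.374 in sperm, overlapped the PBMC library at 0.326. Cntnap5c had 0.242 and 0.232 against 0.151 to 0.262 and showed no separation.

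None of the 8 genes passed edgeR's test for sperm against the other 5 tissues (0.0208% of all genes and 3.39% of genes over 500 kb did, each of them higher), and neither DESeq2 nor limma called any. Over all genes limma called 17 higher and 106 lower in sperm. By unadjusted p, 7 of the 8 were under 0.05, against 5.47% of all genes. Nrxn2 was among these 7 but was lower in sperm, and the rest of the 7 were higher. The differences were 0.50 for Cntnap4 (95% interval 0.16 to 0.83), 0.37 for Cntnap5a (0.13 to 0.62), 0.34 for Nlgn1 (0.12 to 0.57) and 0.34 for Cntnap5b (0.06 to 0.62) on the log2 scale. Nrxn3 (0.25), Cntnap2 (0.25) and Cntnap5c (0.11) were smaller, and Nrxn2 was at -0.39 (-0.77 to -0.01). The adjusted p of the 8 genes ran from 0.572 to 1 in edgeR's test. Their median of 0.30 compares with -0.02 over all genes and 0.23 over genes above 500 kb.

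Brain, the tissue in which these genes are best known to be transcribed, had no member past the threshold. No member passed for SSBs or for AP sites with edgeR, DESeq2 or limma. Over the whole table edgeR called 0% of genes in both assays, with 1885 genes for SSBs and 1782 for AP sites under 0.05 by unadjusted p, where DESeq2 called 0 in each and limma 52 and 79. By unadjusted p, 1 of 8 was under 0.05 in each assay, against 4.9% of all genes for SSBs and 4.31% for AP sites. For SSBs this was Nlgn1 (0.22, 95% interval 0.02 to 0.42, adjusted p = 0.939 by edgeR), with LPKM-SSB of 0.364 and 0.357 in brain, below the sperm libraries and above the rest. For AP sites it was Nrxn2 (0.38, 0.10 to 0.66, adjusted p = 1), with 0.911 and 1.09 LPKM-AP. The 8 estimates ran from -0.13 to 0.22 for SSBs (median 0.11) and from -0.10 to 0.38 for AP sites (median 0.03). The medians over all genes were 0.15 and 0.10, and those over genes above 500 kb 0.05 and 0.03.

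For AP sites, no gene of the 41374 tested passed edgeR's test over the 6 tissues (0%), with 1219 under 0.05 by unadjusted p, and DESeq2 called 0 and limma 176. Of the 8, Nlgn1 alone was under 0.05 by unadjusted p, against 2.95% of all genes. DESeq2 and limma called none of the 8. Bone marrow again had the lowest mean of 2 libraries in 7 of the 8 genes. Its libraries overlapped those of the next tissue for all of these but Nlgn1 and Cntnap5c. The share of all genes with this order was not counted. Nlgn1 had 0.247 and 0.259 LPKM-AP in bone marrow against 0.274 to 0.372 (median 0.325) in the other 10 libraries, without overlap, which 0.822% of all genes and 4.66% of genes over 500 kb also showed. Its difference was -0.41 (95% interval -0.62 to -0.21) and did not pass (edgeR, adjusted p = 0.483). Cntnap5c (-0.38, -0.63 to -0.13), Cntnap4 (-0.28, -0.56 to -0.01), Cntnap5a (-0.22, -0.44 to -0.01), Nrxn3 (-0.20, -0.36 to -0.04), Cntnap5b (-0.17, -0.40 to 0.07) and Cntnap2 (-0.14, -0.31 to 0.02) lay on the same side, and Nrxn2 was at 0.05 (-0.23 to 0.34).

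In bone marrow AP sites 5 of the 8 genes had an unadjusted p under 0.05, against 4.4% of all genes. Over the whole table edgeR called 0% there, with 1819 genes under 0.05 by unadjusted p, where DESeq2 called 1 and limma 77. The contrast had a median difference of -0.21 for the 8 genes, 0.04 for all genes and -0.15 for genes over 500 kb. Sperm gave no comparable shift. The 8 AP differences there ran from -0.03 to 0.16, none had an unadjusted p under 0.05, and none passed with edgeR, DESeq2 or limma (0% of all genes with edgeR, 1555 of them under 0.05 by unadjusted p, 0 with DESeq2 and 72 with limma). Nlgn1 had the highest of them (0.16, 95% interval -0.03 to 0.35). Nrxn2 was lowest in heart, at 0.688 and 0.643 LPKM-AP, below every other library, as were 0.882% of all genes.

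The next comparison set SSBs against AP sites of the same sample, which shows whether a gene takes a larger share of one lesion than of the other. Nrxn3 was the 1 member that passed, with a smaller share of SSBs (log2 difference -0.24, SE 0.06, edgeR adjusted p = 0.00777), where 0.59% of all genes and 24.2% of genes over 500 kb were called lower. By unadjusted p, 2 of the 8 were under 0.05, Nrxn3 and Nrxn2, against 9.93% of all genes. The LPKM-SSB of Nrxn3 was below its LPKM-AP in 9 of 12 samples, with log2 ratios from -0.37 (PBMC 2) over a median of -0.15 to 0.11 (brain 1). The exceptions were brain 1 and both sperm samples. Leaving out each sample in turn kept the call in 12 of 12 fits, between -0.27 and -0.22. It did not pass with DESeq2 (-0.15, adjusted p = 0.172) or without TMM scaling (-0.14, 0.152). The median over all genes was -0.08 with TMM and 0.00 without, and relative to that median Nrxn3 differed by -0.16 and -0.15. Genes over 500 kb had a lower median with TMM, at -0.13, so part of the Nrxn3 difference was shared with long genes.

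Nrxn2 leaned the other way, with LPKM-SSB above LPKM-AP in 10 of 12 samples. Its log2 ratios were 0.68 and 0.81 in bone marrow, 0.82 and 0.40 in heart, 0.27 and 0.46 in liver, 0.61 and -0.30 in PBMCs, 0.16 and 0.10 in brain, and -0.14 and 0.01 in sperm. The difference of 0.25 (95% interval 0.07 to 0.42) did not pass with TMM (edgeR, adjusted p = 0.209) and passed without it (0.34, adjusted p = 0.0263). The other 6 genes lay near 0. Cntnap2 was at -0.10 (-0.21 to 0.01), Cntnap5c at -0.13 (-0.29 to 0.03), Cntnap4 at -0.05 (-0.22 to 0.12), Cntnap5a at -0.04 (-0.17 to 0.10), Nlgn1 at -0.02 (-0.15 to 0.11) and Cntnap5b at 0.00 (-0.15 to 0.14), and the sign of the last 4 turned without TMM. Whether the difference between the assays varied among tissues was tested as an interaction. No gene passed (edgeR, 0% of 41210, with 1556 under 0.05 by unadjusted p, and DESeq2 0), and 1 of the 8, Nrxn3, was under 0.05 by unadjusted p, against 3.78% of all genes.

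**Figure D3:**
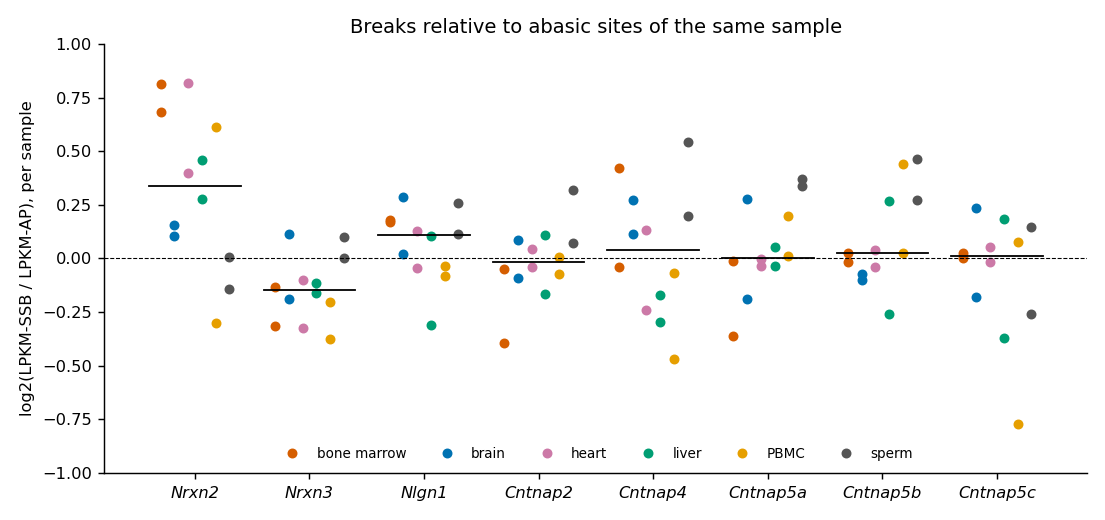
Log2 ratio of LPKM-SSB to LPKM-AP in each of the 12 samples, by gene and coloured by tissue, with the median as a black line. Nrxn2 has a median of 0.34 and Nrxn3 of -0.15, and the 6 other medians lie between -0.02 and 0.11.

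The strand of a listed position was compared with the strand of the gene, which the reference tables gave for Nrxn3, Nlgn1, Cntnap2 and Cntnap5b. Strand was not analysed here for the other 4 genes. Nrxn3 had more SSBs listed on its own strand than on the opposite one in 12 of 12 libraries. The share on its own strand ran from 51.7% to 58.8% with a median of 55.3%, and over all libraries 2091 positions stood against 1687. The log2 ratio was 0.31 (SE 0.05, edgeR adjusted p = 1.48e-06), where 2.72% of all genes and 30.1% of genes over 500 kb were called in this direction and the median over all genes was 0.18. With each library left out in turn the call held in 12 of 12 fits, at 0.29 to 0.32. By tissue the mean share was 54.5% to 55.3% in 5 tissues and 57.6% ± 1.61 (SD, n = 2) in sperm.

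The other 3 genes with a known strand did not pass for SSBs. Nlgn1 was at 0.15 (95% interval 0.00 to 0.29, adjusted p = 0.356), Cntnap5b at 0.12 (-0.06 to 0.29, 0.675) and Cntnap2 at 0.04 (-0.06 to 0.15, 0.849) in edgeR's test. For AP sites Nrxn3 had 50.4% to 55% on its own strand, again above 50% in 12 of 12 libraries, with a log2 ratio of 0.16 (0.08 to 0.24) that did not pass (edgeR, adjusted p = 0.113). No member passed for AP sites (0.0552% of all genes did), and DESeq2 was not run on this comparison. Nrxn3 was the 1 member with an unadjusted p under 0.05, as were 6.71% of all genes.

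Density along the genes was then compared between the parts before and after the midpoint, in the direction of transcription, for the same 4 genes. Cntnap2 had fewer lesions in its first part in every library of both assays. Its LPKM-SSB was 0.24 ± 0.0368 before and 0.308 ± 0.027 after the midpoint, and its LPKM-AP 0.229 ± 0.0252 and 0.322 ± 0.0234 (SD, n = 12). The log2 ratio was -0.35 for SSBs (SE 0.05, adjusted p = 1.19e-08) and -0.49 for AP sites (SE 0.04, adjusted p = 1.51e-27) in edgeR's test. Of all genes, 4.19% for SSBs and 12.1% for AP sites were called in this direction, as were 35.5% and 49.2% of genes over 500 kb. In 10 equal bins along the gene the excess lay at the 3′ end, where the last bin had 0.387 ± 0.0643 LPKM-SSB and 0.468 ± 0.0414 LPKM-AP and the first 0.239 ± 0.0477 and 0.232 ± 0.06.

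Cntnap5b had the opposite slope. Its LPKM-SSB was 0.291 ± 0.0605 before and 0.227 ± 0.032 after the midpoint, with the first part higher in 10 of 12 libraries, and its LPKM-AP 0.264 ± 0.0359 and 0.222 ± 0.0397, higher in 9 of 12. It passed in both assays (log2 ratio 0.32, SE 0.09, adjusted p = 0.0126 for SSBs, and 0.27, SE 0.08, adjusted p = 0.00342 for AP sites, edgeR). In this direction 3.63% of all genes were called for SSBs and 6.13% for AP sites, as were 11.5% and 12.6% of genes over 500 kb. The SSB call was lost without brain 2 (0.29, adjusted p = 0.0531), liver 2 (0.28, 0.0695) or sperm 2 (0.27, 0.062), and both were lost when the first and last of 4 equal parts were compared (0.19, adjusted p = 0.44, and 0.24, 0.0983).

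Nrxn3 and Nlgn1 showed no difference past the threshold between the 2 parts. Nrxn3 was at 0.06 (95% interval -0.04 to 0.16) for SSBs and 0.09 (0.01 to 0.16) for AP sites, and Nlgn1 at 0.02 (-0.12 to 0.17) and -0.07 (-0.18 to 0.05), with edgeR adjusted p of 0.108 to 0.897. Nrxn3 had its highest density in the first of the 10 bins, at 0.545 ± 0.115 LPKM-SSB and 0.614 ± 0.0354 LPKM-AP, against a mean of 0.427 and 0.47 over the whole gene. With the first and last of 4 equal parts in place of the midpoint, Nrxn3 passed for AP sites (0.31, adjusted p = 4.1e-07) and Nlgn1 for SSBs (0.39, adjusted p = 0.00534). Nrxn3 also passed for AP sites when heart 2 (0.11, adjusted p = 0.0376) or PBMC 2 (0.13, 0.0186) was left out.

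**Figure D4:**
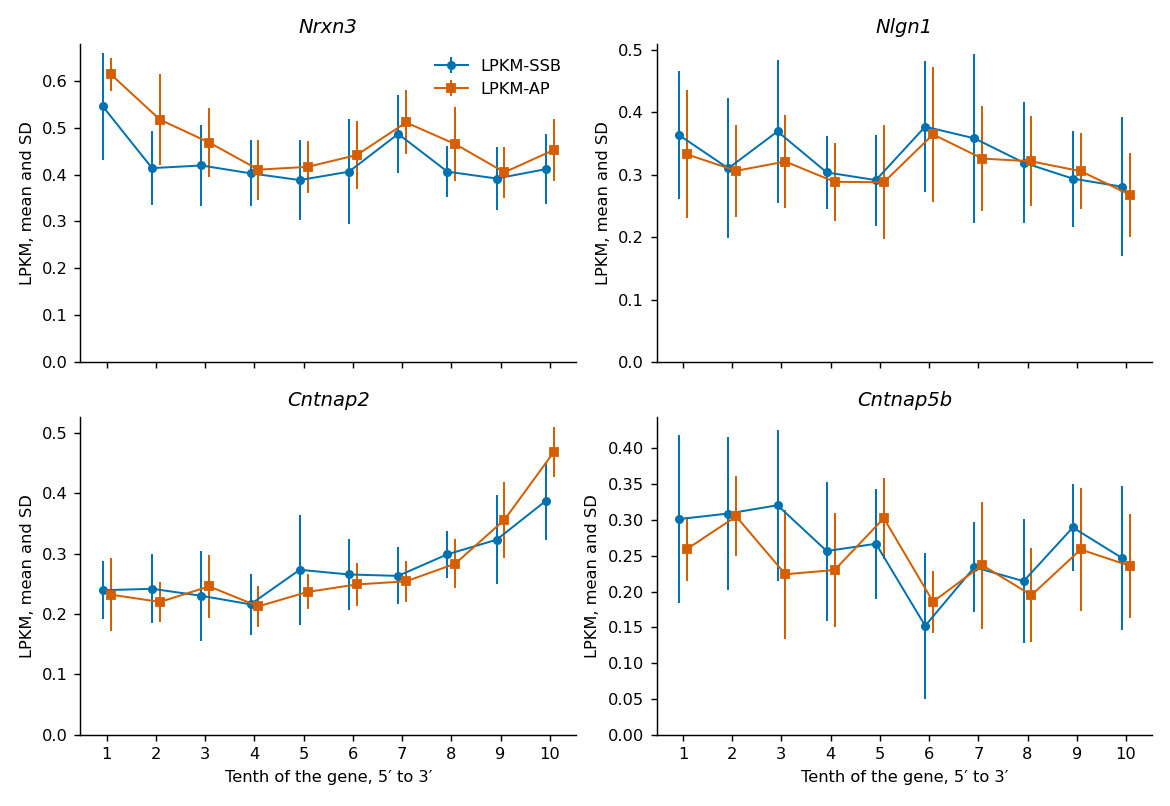
LPKM in 10 equal bins of 4 genes, from the 5′ to the 3′ end, as mean and SD over 12 libraries per assay. Cntnap2 climbs to 0.387 LPKM-SSB and 0.468 LPKM-AP in its last bin, and Nrxn3 is highest in its first, at 0.545 and 0.614.

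Each gene was also set against the DNA within 500 kb on either side. Lesions were denser inside than outside for 7 of the 8 genes in both assays, all but Cntnap5c, in a comparison where 27.8% of all genes for SSBs and 36.8% for AP sites were called higher inside (52.1% and 61.9% of genes over 500 kb). Cntnap5a had the steepest step. Its LPKM-SSB was 0.277 inside and 0.147 ± 0.0255 in its flanks, a ratio of 1.54 to 2.58 over the 12 libraries (log2 0.94, SE 0.07, edgeR adjusted p = 2.03e-43), and for AP sites the ratio was 1.49 to 2.58 (log2 1.03, SE 0.06, adjusted p = 6.07e-74). The medians over all genes were 0.30 for SSBs and 0.35 for AP sites on the log2 scale.

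For SSBs the log2 ratio was 0.63 for Nrxn2, 0.50 for Nlgn1, 0.49 for Cntnap5b, 0.34 for Nrxn3, 0.19 for Cntnap4 and 0.15 for Cntnap2. For AP sites it was 0.60 for Cntnap5b, 0.51 for Nrxn3, 0.48 for Nlgn1, 0.45 for Nrxn2, 0.40 for Cntnap2 and 0.22 for Cntnap4. Cntnap5c was at 0.01 (95% interval -0.12 to 0.14) for SSBs and 0.12 (0.01 to 0.22, edgeR adjusted p = 0.0717) for AP sites. It passed for AP sites without bone marrow 2 (0.15, adjusted p = 0.0233), brain 2 (0.14, 0.0332) or liver 2 (0.13, 0.0459). The 2 smallest SSB steps were lost in single leave-outs, that of Cntnap2 without brain 1 (0.13, adjusted p = 0.0522) or liver 2 (0.13, 0.0703) and that of Cntnap4 without bone marrow 1 (0.16, 0.0824) or sperm 1 (0.14, 0.154).

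The width of the flanks changed calls or directions for 4 genes. Within 100 kb, Cntnap2 was lower than its surroundings in both assays (SSB -0.20, adjusted p = 0.0429, and AP -0.23, 0.00205, edgeR). Within 1 Mb, Cntnap4 was lower (SSB -0.20, adjusted p = 0.00641, and AP -0.15, 0.0111), as was Cntnap5c (SSB -0.65, adjusted p = 2e-28, and AP -0.44, 7.81e-20). Cntnap2 did not pass for SSBs within 1 Mb (0.018, adjusted p = 0.758), nor Cntnap5b for SSBs (0.17, 0.224) or Cntnap4 for AP sites (0.15, 0.1) within 100 kb. Nrxn2, Nrxn3, Nlgn1 and Cntnap5a passed as higher at all 3 widths in both assays. The flanks hold other genes, and the part that base composition or mappable sequence plays in these ratios was not tested.

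**Figure D5:**
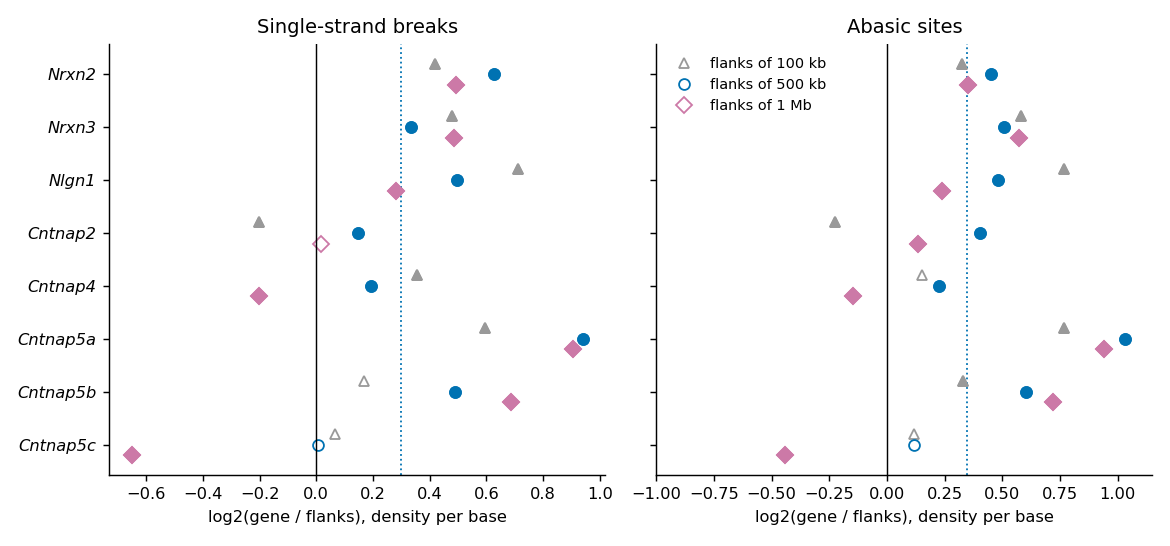
Log2 ratio of lesion density inside each gene to that in its flanks, for flanks of 100 kb (triangles), 500 kb (circles) and 1 Mb (diamonds) on either side. Filled symbols passed the adjusted threshold of 0.05, and the dotted line is the median over all genes at 500 kb. Cntnap5a has the highest ratio at 500 kb in both assays (0.94 and 1.03), and Cntnap5c falls to -0.65 and -0.44 at 1 Mb.

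Few nucleotides were listed more than once. Of the 3763 SSB nucleotides in Nrxn3, 15 recurred in a second library and none in more than 2, and of its 6575 AP nucleotides 85 recurred and 2 were found in 3 libraries. The counts for Cntnap2 were 11 of 3404 and 66 of 5327. In windows of 10 kb, the highest count relative to the mean of its own gene was at chr6:47250061-47260060, near the 3′ end of Cntnap2, with 77 AP positions from all 12 libraries, or 3.21 times the mean. By count alone, Nrxn2 and Nrxn3 had AP windows with more positions, at 106 and 86. For SSBs the densest relative to its gene was also in Cntnap2, at chr6:47180061-47190060, with 39 positions from 11 libraries (2.57 times the mean). Nlgn1 had the same densest window in both assays, chr3:25801808-25811807, with 35 SSB and 57 AP positions.

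The partner list held 38 genes: other family members, extracellular ligands of neurexins, intracellular scaffolds, and axonal partners of contactin-associated proteins. For SSBs across the tissues 1 of 38 passed, the synaptic scaffold Magi2 (edgeR, adjusted p = 0.0191), against 0.125% of all genes and 15.7% of genes over 500 kb. For AP sites none did, as over all genes (0%). By unadjusted p, 2 of 38 were under 0.05 for AP sites, against 2.95% of all genes. Cbln2, C1ql2 and Cntnap3 were the lowest there (edgeR, unadjusted p of 0.0155, 0.0381 and 0.0718). None of the 38 passed in bone marrow, sperm or brain in either assay with edgeR. In the bone marrow SSB contrast 9 of 38 were under 0.05 by unadjusted p, against 6.78% of all genes. The median difference over the list was -0.23, against 0.04 over all genes and -0.35 over genes above 500 kb, and 13 of the 38 estimates were above 0. Between SSBs and AP sites 3 passed as higher for SSBs, Nlgn2 (0.79, SE 0.21, adjusted p = 0.0359), Dlg4 (0.67, SE 0.18, 0.0259) and Shank1 (0.70, SE 0.14, 0.00074), and Apba1 as lower (-0.30, SE 0.08, 0.0445). Of all genes, 0.155% were called higher and 0.59% lower. Nlgn2 is the neuroligin of inhibitory synapses, and Dlg4 and Shank1 encode postsynaptic scaffolds.

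Inside against the 500 kb flanks, 25 of 38 partner genes were higher and 4 lower for SSBs, and 26 were higher and 5 lower for AP sites. Of all genes 27.8% were higher and 8.09% lower for SSBs, and 36.8% and 10.6% for AP sites. Between the parts before and after the midpoint, 25 partner genes with a known strand were compared, and 2 were higher and 4 lower before it in each assay. Over all genes these shares were 3.63% and 4.19% for SSBs and 6.13% and 12.1% for AP sites. Magi2 (-0.38 for SSBs and -0.57 for AP sites) and Dlg2 (-0.53 and -0.42) had the same slope as Cntnap2, and Nxph1, which encodes a ligand of neurexins, had that of Cntnap5b (0.57 and 0.48). Shank3 was the 1 partner of 25 that passed for strand in SSBs (0.52, SE 0.16, edgeR adjusted p = 0.0323), where 2.72% of all genes were called in this direction.

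Genes whose levels ran most like the 8 pooled were ranked by Pearson's r of log2 LPKM over the 12 libraries of an assay, among genes averaging 100 or more positions per library. In the SSB libraries, of 279 genes, these were Tenm2 (0.93), Ctnna2 (0.92), Nav3 (0.89), Cadm2 (0.88) and Rbfox1 (0.88), against a median r of 0.34. For AP sites, of 695 genes, they were Galntl6 (0.93), Marchf1 (0.90), Erbb4 (0.89), Macrod2 (0.89) and Tafa2 (0.88), against 0.03. No gene was in both lists. These 10 genes are 477181 to 1997664 bases long, the points share library depth, and the values are descriptive.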

How the data were processed

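The authors deposited, for each of the 24 libraries, a list of single-nucleotide lesion positions with strand and a raw count per position. The lists were made from sequencing reads with the authors' own code. The builds named in the submitters' processing notes are mm10 and GRCm38, and the aligner and filters are not given in the sources used here. Positions, not their counts, were summed over the whole span of each RefSeq gene (GRCm38.p6) and expressed as LPKM. Genes hit in 20% or more of the libraries were tested with edgeR 4.0.16 (R 4.3.3) by the quasi-likelihood F test with TMM, library size set to all positions, and Benjamini-Hochberg adjustment over all genes (threshold 0.05). The comparison of SSBs with AP sites had the sample as a block, and those of strand, gene parts and flanks had the library. Scripts were tested on simulated data. DESeq2 1.42.0, limma 3.58.1, other scalings, filters, flank widths, thinning, summed counts and leaving out libraries were alternatives. All members, the partner list and the tests were chosen with earlier results of these data known. The 8 members and the partner list are named in full or by count, and 5 similar genes per assay by correlation. Exons and RNA were not analysed here. Intervals are 95%, and those of edgeR rest on counting error and a spread estimated over all genes. They do not cover each gene's own variation between mice.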

Additional observations from a re-analysis of the deposited data

How the results depend on the processing

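Each tissue had 2 libraries and SSB depths differed several-fold. Of the 8 genes, 2 passed across tissues for SSBs, against 0 with DESeq2, limma, no TMM, summed counts, thinning to equal depth, without bone marrow or without sperm, 1 with DESeq2 size factors or no filter, and 0 to 3 with 1 library left out. In bone marrow SSBs 3 passed, against 0 with DESeq2, limma, summed counts, thinning or without sperm, 1 without TMM (Nrxn2, higher, and none of the 3), and 0 to 3 with 1 library left out. Between SSBs and AP sites 1 passed, against 0 with DESeq2 or thinning, and without TMM Nrxn2 passed in place of Nrxn3. Leaving out 1 library gave 1 to 2 calls for the parts of the gene in SSBs. The cause was not tested. Over all genes, the 73 bone marrow calls became 8 with DESeq2, 29 without TMM, 14 with summed counts, 1 when thinned and 6 without sperm, the 48 calls across tissues 4, 15, 16, 4 and 7, and the 307 between the assays 43 with DESeq2, 173 without TMM and 11 when thinned. The 8 sperm SSB calls became 14 with DESeq2, 27 with its size factors or the 80% filter, and 3 with summed counts or without bone marrow. With limma there were 123 sperm calls (17 higher, 106 lower), 56 in bone marrow (28 higher and 28 lower, against 9 and 64) and 186 across tissues.

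Between SSBs and AP sites, signs turned for Nlgn1, Cntnap4, Cntnap5a and Cntnap5b with DESeq2 (0.056, 0.028, 0.041 and 0.075) and without TMM (0.069, 0.039, 0.0501 and 0.085), and Nlgn1, Cntnap4, Cntnap5b and Cntnap5c when thinned (0.12, 0.00087, 0.23 and 0.012). Leaving out libraries gave -0.054 to 0.011 for Nlgn1 and -0.047 to 0.026 for Cntnap5b there, -0.026 to 0.042 for Cntnap5c against SSB flanks and -0.024 to 0.033 for the strand of Cntnap2 in AP sites. Against flanks, called values turned too, 2 for SSBs and 2 for AP sites, those of Cntnap2 and Cntnap4. Cntnap5c was at -0.00043 for SSBs without the library block, Cntnap2 at -0.20 and -0.23 (SSB and AP, 100 kb), and Cntnap4 at -0.20 and -0.15 and Cntnap5c at -0.65 and -0.44 (1 Mb). Nlgn1 was at 0.18 for AP sites between the first and last of 4 equal parts. With those parts, Cntnap5b lost its calls in both assays. Estimates for brain turned in 17 of 192 SSB fits and in 30 of 192 AP fits, and sperm AP estimates in 24 of 184, none of them a called value.

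Replicate numbers were not taken as pairs. Deviations of same-numbered samples correlated above 0.1 in 0 of 15 tissue pairs for SSBs and 4 of 15 for AP sites. The r ran from -0.04 to 0.07 for SSBs and from -0.30 to 0.24 for AP sites. These values cannot show whether same-numbered samples came from the same mouse. With a replicate block, 68 genes in place of 73 passed in bone marrow SSBs and 59 in place of 48 across tissues, with 3 and 2 of the 8 genes as before, and without the sample block 419 in place of 307 passed between the assays.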
